A study of Mus musculus with 3 samples.

Results

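Metallothioneins and genes of iron and zinc handling were followed across the 3 epithelial lineages of the mouse stomach. The set has 10 genes, namely the metallothioneins Mt1 and Mt2, their regulator Mtf1, the zinc exporter Slc30a1, and, for iron, Cybrd1, Slc11a2, Slc40a1, Fth1, Ftl1 and Tfrc. They were chosen by function, with their levels on these arrays already known, so the levels given here are a description and were not tested. Of the 10 genes, 9 had at least 1 probe set that names no other gene, 26 probe sets in all, out of 18194 genes and 34958 such probe sets on the array. Ftl1 had none, because each probe set that lists it also lists a related sequence. RNA was measured on Affymetrix whole-genome mouse arrays. There was 1 array for each of the acid-secreting parietal cells, the pepsinogen-secreting zymogenic (chief) cells and the pit cells, which are mucous cells of the upper gastric unit. The cells were cut out of sections of mouse stomach with a laser and were told apart by lectin and E-cadherin staining. Each array holds RNA of 3000 to 5000 cells pooled over 4 to 5 mice, with 20 ng of RNA given for each. Parietal and pit cells were taken from the same gastric units and zymogenic cells from other slides, so on the zymogenic array the lineage and the slides it was cut from cannot be told apart. The labels name the molecule nuclear RNA while the design text speaks of total RNA, and neither strain, age nor genotype is stated.

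Metallothioneins are small proteins rich in cysteine that bind zinc, copper and cadmium, and their genes are switched on by the zinc-sensing factor Mtf1 through short metal response elements. In the gut, ferric iron is reduced at the apical membrane by Cybrd1 and taken in by Slc11a2, iron is stored in ferritin shells built from Fth1 and Ftl1, and it leaves the cell through ferroportin, Slc40a1. Tfrc takes up iron bound to transferrin from the blood side. Iron regulatory proteins bind stem-loops in the mRNAs of both ferritins, Slc40a1 and Tfrc and set how much protein is made or how long the mRNA lasts, so that mRNA and protein need not move together.

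The promoters of the metallothionein genes and of Slc30a1 are shown because these are the textbook targets of Mtf1, and because Mt1 and Mt2 exceeded the detection floor described below and Slc30a1 did not. Mt1 and Mt2 are neighbours on chromosome 8, with 0 annotated genes between them. Each sequence is the 250 bases before an annotated start, 5′ to 3′, from RefSeq on GRCm38.p6. Capitals mark the core of the metal response element, searched as TGCACNC and TGCGCNC on both strands, and a match on the other strand appears reverse-complemented.
Mt1, chr8:94178839-94179088, plus strand: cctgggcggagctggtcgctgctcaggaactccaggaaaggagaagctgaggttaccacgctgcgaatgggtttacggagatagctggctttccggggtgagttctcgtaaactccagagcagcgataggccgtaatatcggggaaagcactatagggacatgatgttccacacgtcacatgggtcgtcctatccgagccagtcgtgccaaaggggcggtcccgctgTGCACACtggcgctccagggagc
Mt2, chr8:94172368-94172617, plus strand: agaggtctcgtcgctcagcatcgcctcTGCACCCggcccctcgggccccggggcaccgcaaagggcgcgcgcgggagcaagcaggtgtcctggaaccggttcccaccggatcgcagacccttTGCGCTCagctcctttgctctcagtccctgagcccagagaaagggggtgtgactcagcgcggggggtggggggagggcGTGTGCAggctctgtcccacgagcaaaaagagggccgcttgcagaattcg
Slc30a1, chr1:191906531-191906780, plus strand: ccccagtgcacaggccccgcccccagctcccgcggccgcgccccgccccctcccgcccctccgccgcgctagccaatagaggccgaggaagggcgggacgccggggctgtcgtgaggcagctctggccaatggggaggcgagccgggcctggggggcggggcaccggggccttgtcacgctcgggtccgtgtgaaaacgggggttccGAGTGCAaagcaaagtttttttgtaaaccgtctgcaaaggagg
In the window of 300 bases that adds the 50 after the annotated start, Mt1 had 3 matches, at -23, 3 and 21 from that start. Mt2 had 4, at -223, -128, -50 and 5, and Slc30a1 had 2, at -43 and 31. Of the 32851 windows of this length in the table, 25.7% held at least 1 match and 1.97% held at least 3, where the 2 strands may overlap. The annotated start of a window need not be the start that cells use. Matches listed after it, such as 3 and 21 in Mt1, may therefore lie outside the transcript. Bases outside a window were not searched, and the start used in these cells was not measured. The counts therefore do not rank the promoters by their number of elements. No match was found in the windows of Cybrd1, Mtf1, Fth1 and Ftl1, 1 of the 2 Tfrc windows held 2 overlapping matches, and a match is a string of letters and not a measured binding site.

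Intensities are linear values as the authors deposited them, and a detection floor of 23.3 was taken from 80 probe sets of olfactory and vomeronasal receptors. The arrays had medians of 4.50, 4.81 and 4.64 over all probe sets on the parietal, zymogenic and pit array, and 2809, 2285 and 2616 genes above the floor. A lineage has a single array, so no value has a replicate error, and precision is limited by that number. Among the 1186 genes that passed the floor everywhere, parietal minus zymogenic had a median log2 difference of 0.64, parietal minus pit of 0.29 and zymogenic minus pit of -0.21, and quantile normalization brought these to 0.073, 0.049 and 0.050. Defining markers were present but not exclusive. Of 9 zymogenic markers, 6 passed 2-fold upward against both others on their own array, beside 3 of 12 parietal markers on the parietal array and 3 of 9 pit markers on the pit array. Of the parietal markers 5 were under the floor everywhere, Kcnq1 was called higher in zymogenic RNA, and Atp4a read 214 in parietal and 261 in zymogenic RNA. The parietal markers summed to 5744 in parietal RNA, 1354 in zymogenic RNA and 405 in pit RNA. The zymogenic markers summed to 4086 in parietal RNA, 36602 in zymogenic RNA and 312 in pit RNA, with Clps at 2889 in parietal RNA. The 9 pit markers summed to 19986 in parietal RNA, 14343 in pit RNA and 171 in zymogenic RNA, so the parietal sample carries RNA of pit markers. Gkn1, at 10493 in parietal RNA and 8307 in pit RNA, and Gkn2 make up most of that sum. Muc5ac, Tff1, Krt20, Psca, Capn8 and Capn9 read higher in pit than in parietal RNA, and the list's median log2 ratio to the mean of the other arrays was 2.66 in pit RNA, 1.26 in parietal RNA and -2.64 in zymogenic RNA.

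Of the 9 measured genes, 6 exceeded the floor on at least 1 array, through 8 of their 26 probe sets. A gene was called when its brightest probe set was at least 2-fold above, or below, both other arrays, with values under the floor raised to it. On the parietal array 2 members were called higher, Mt1 and Mt2, where 1.70% of all genes and 7.49% of the 4138 genes above the floor were. On the zymogenic array 1 member, Tfrc, was called higher (1.57% of all genes, 6.91% of those above the floor) and 1, Mt1, lower (2.52% and 11.1%). On the pit array 1 member, Cybrd1, was called higher (1.31% and 5.78%). No member was called lower on the parietal array (0.0879% and 0.387%) or the pit array (0.594% and 2.61%). These counts are set out as a description, since the genes were picked with the values in view.

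**Figure D1:**
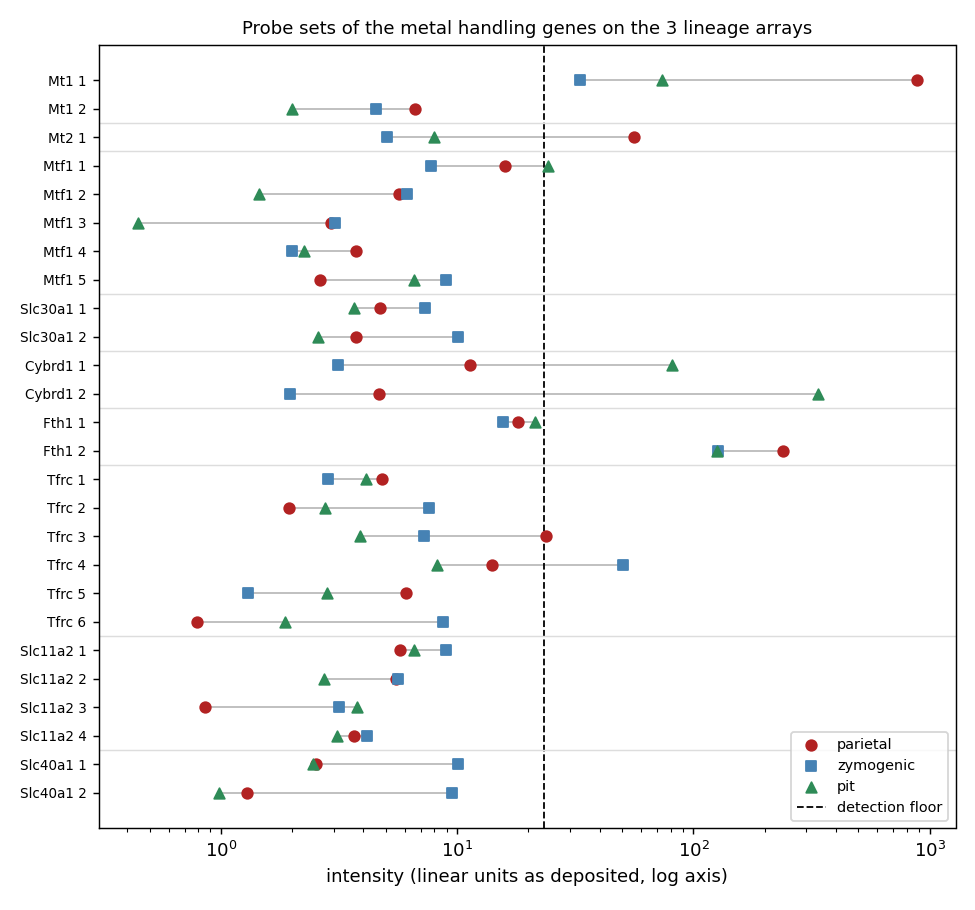
Intensity of each of the 26 probe sets of the 9 measured genes (rows, numbered within a gene) on the parietal (circle), zymogenic (square) and pit (triangle) array, on a log axis, with the detection floor of 23.3 dashed. Only 8 probe sets cross the floor on any array, among them Mt1 at 881 in parietal RNA and Cybrd1 at 335 in pit RNA.

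Mt1 was highest on the parietal array. Its brighter probe set read 881 in parietal RNA, against 33.2 in zymogenic RNA and 73.5 in pit RNA. The parietal value was 12.0-fold above the pit array and 26.5-fold above the zymogenic array, and all 3 values were over the floor. After the median difference between the arrays is taken off, the log2 difference was 3.29 for parietal minus pit and 4.09 for parietal minus zymogenic. Log2 ratios from different probe sets of the same gene scattered with an SD of 0.477 over 781 combinations of gene and array pair, which covers the probes and not the spread between animals or captures. On the zymogenic array Mt1 was lower than on both others, by a log2 difference of -1.15 for zymogenic minus pit, or -0.94, short of 2-fold, with the median difference taken off. The second Mt1 probe set was under the floor on every array, at 6.63 in parietal RNA, 4.50 in zymogenic RNA and 2.00 in pit RNA, and so did not show the difference. The name of the bright probe set ends in _s_at, the array's mark for probes that can match more than 1 transcript, and the other's does not. A share of closely related metallothionein RNA in the bright probe set was not tested.

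Mt2, the second metallothionein expressed widely in tissues, was also highest there. Its only probe set, whose name carries no such mark, read 55.8 in parietal RNA, against 5.05 in zymogenic RNA and 7.96 in pit RNA. Both other values were under the floor, which makes the difference at least 2.40-fold. The call depends on the scaling. The log2 ratio over the floor was 1.26 on the deposited scale, 0.87 after quantile normalization and 0.62 with the arrays brought to 1 median over the genes above the floor on all 3, so that Mt2 was then under 2-fold. Mt3 and Mt4, metallothioneins of brain and of stratified epithelium, stayed under the floor, with at most 3.46 and 6.69 on any array.

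Markers of other cells that were higher on the parietal array stand beside these values. The pit marker Gkn2 read 7987 in parietal RNA, against 8.28 in zymogenic RNA and 2723 in pit RNA, and it was the 1 of 9 pit markers at least 2-fold higher there. Mt1 was 12.0-fold above the pit array where Gkn2 was 2.93-fold above it. Of 5 fibroblast markers, Col1a2 and Col3a1 passed 2-fold upward in parietal RNA, and the list summed to 303 in parietal RNA, 146 in zymogenic RNA and 82.1 in pit RNA, with no marker of it at 0. Of the 2 measured neck cell markers, Tff2 was also called higher in parietal RNA, at 402, against 21.9 in zymogenic RNA and 110.4 in pit RNA, while Gkn3 passed the floor only in pit RNA, at 28.7, against 10.8 in parietal RNA and 8.56 in zymogenic RNA. The part of these cells in the metallothionein values was not tested. In pooled tissue RNA, fewer cells of a type and less RNA per cell cannot be told apart.

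Mtf1, the zinc sensor, was close to the limit of detection. The brightest of its 5 probe sets read 24.1 in pit RNA, against 15.9 in parietal RNA and 7.70 in zymogenic RNA, and the pit value was 1.04-fold the floor. Its other 4 probe sets never reached the floor. Slc30a1, the plasma membrane transporter that carries zinc out of the cell, was not detected. Its 2 probe sets read 3.72 and 4.70 in parietal RNA, 10.04 and 7.29 in zymogenic RNA and 2.57 and 3.65 in pit RNA. The arrays therefore give no order of lineages for either gene.

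Cybrd1, the ferric reductase of the apical membrane, was higher on the pit array in both of its probe sets. The brighter one read 335 in pit RNA, against 4.64 in parietal RNA and 1.95 in zymogenic RNA, a difference of at least 14.4-fold because both other values were under the floor. The other read 81.3 in pit RNA, against 11.3 in parietal RNA and 3.14 in zymogenic RNA, at least 3.49-fold. Neither probe set carries a mark for several transcripts. Cybrd1 and Tfrc are the 2 members with more than 1 probe set above the floor, and in Cybrd1 both were above the floor in pit RNA only, so the parietal and zymogenic arrays have no order. The low parietal values of Cybrd1 stand beside pit markers that were all above the floor in parietal RNA. Capn8 and Capn9 passed it only narrowly there, at 23.9 and 26.5. Among the pit markers Krt20 also read highest in pit RNA, at 657, against 32.2 in parietal RNA and 8.83 in zymogenic RNA.

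The iron importer and the iron exporter that work with Cybrd1 in the absorbing duodenum were not detected. Slc11a2, the proton-coupled carrier of ferrous iron, had 4 probe sets, all under the floor, of which the brightest read 5.73 in parietal RNA, 8.98 in zymogenic RNA and 6.56 in pit RNA. Slc40a1, ferroportin, had 2 probe sets. They read 10.1 and 9.49 in zymogenic RNA, against 2.51 and 1.28 in parietal RNA and 2.45 and 0.977 in pit RNA. All 6 Slc40a1 values were under the floor, so the difference between the zymogenic and the other arrays is not measurable here.

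Fth1, the heavy ferritin chain that oxidises iron for storage, was the other member above the floor on all 3 arrays. Its brighter probe set read 239 in parietal RNA, against 127 in zymogenic RNA and 126 in pit RNA. The parietal value was 1.89-fold above the zymogenic and 1.90-fold above the pit array, short of the 2-fold threshold. With the median difference between arrays taken off, the log2 difference was 0.28 for parietal minus zymogenic and 0.64 for parietal minus pit. Zymogenic and pit values differed by 0.0079 on the log2 scale, or 0.22 with the median difference taken off. The second Fth1 probe set was under the floor on every array, at 18.1 in parietal RNA, 15.5 in zymogenic RNA and 21.3 in pit RNA. Both names carry a mark for several transcripts, but not the same one, as the brighter ends in _a_at and the second in _s_at. Ferritin has many processed pseudogenes, and a share of them in the signal was not tested.

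Tfrc, the transferrin receptor, passed the floor in 2 probe sets, on different arrays. It has 6, of which 3 are the array's own controls placed along the mRNA. The control at the 3′ end read 50.2 in zymogenic RNA, against 14.1 in parietal RNA and 8.17 in pit RNA, at least 2.16-fold. The control in the middle of the mRNA read 8.69 in zymogenic RNA, 0.789 in parietal RNA and 1.85 in pit RNA, and that at the 5′ end read 1.29 in zymogenic RNA, 6.06 in parietal RNA and 2.80 in pit RNA. Both were under the floor on every array. Of the 3 ordinary probe sets, 1 crossed the floor, on another array, with 23.7 in parietal RNA, against 7.23 in zymogenic RNA and 3.86 in pit RNA, or 1.02-fold the floor. Without the control probe sets Tfrc was not called on any array. Endocrine markers were also higher in zymogenic RNA, with 4 of 6 called, and the list summed to 955, against 39.0 in parietal RNA, where Hdc was at 0, and 65.0 in pit RNA. Of 8 macrophage markers 1, Csf1r, was called higher there, while Adgre1 read 5.83 in zymogenic RNA, against 33.6 in parietal RNA and 34.1 in pit RNA, and the list's median log2 ratio was -0.24 in zymogenic RNA. Of 3 lymphocyte markers 1, Cd79a, was called higher in zymogenic RNA, and Cd3e was under the floor on every array. The part of these cells in the Tfrc value was not tested. None of the 3 measured erythroid markers, of 7 listed, was above the floor, with sums of 13.1 in zymogenic RNA, 16.6 in parietal RNA and 9.78 in pit RNA.

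**Figure D2:**
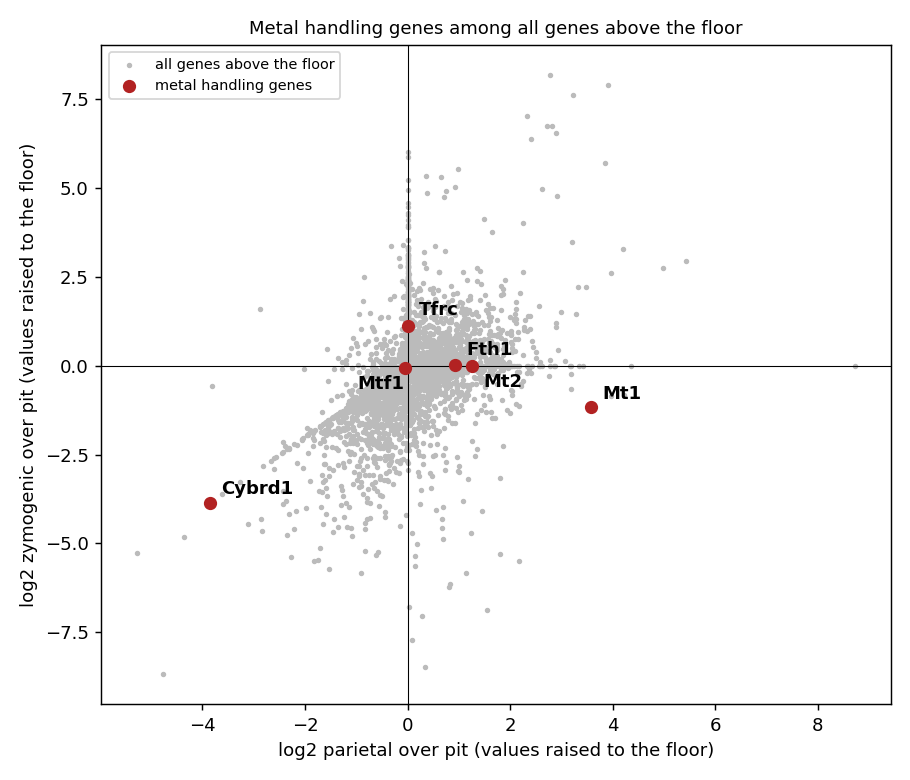
Log2 ratio of parietal over pit (x) and zymogenic over pit (y), values raised to the floor, for the 4138 genes above the floor on at least 1 array (grey) and the 6 metal handling genes among them (red). Mt1 lies at 3.58 and -1.15 and Cybrd1 at -3.85 on both axes, while Mtf1, Fth1, Tfrc and Mt2 lie within 1.27 of 0 on each.

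The genes with the most similar pattern were found by the Euclidean distance between log2 values, raised to the floor and centred over the 3 arrays, among the other 4137 genes above the floor. Nearest to Mt1 were Lgals2, a galectin, at a distance of 0.28, then Irf7 and Oas1a, genes of the interferon response, at 0.44 and 0.64. Lgals2 read 657 in parietal RNA, against 5.94 in zymogenic RNA and 42.1 in pit RNA. Nearest to Cybrd1 were Gng4 at 0.20, Bnip5 at 0.48 and Krt20 at 0.69. Gng4 read 348 in pit RNA, against 28.5 in parietal RNA and 28.8 in zymogenic RNA. Mt2 lay next to Vps29, Lgals3bp and Zfp746, Fth1 next to Txndc9, Galnt6 and Wdr33, Tfrc next to Tmem200a, Slx4 and Evi2a, and Mtf1 next to Lair1, Tnks and Mdm4, each at a distance of at most 0.016. In these 4 lists the neighbours have 2 arrays at or under the floor, which fixes most of their pattern, and 3 arrays are too few points to read more from any of these distances.

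The wider iron list, of 30 genes for transport, sensing and regulation, had 29 measured and 6 above the floor. On the parietal array 2 were called higher and on the pit array 1 lower, beside 7.49% and 2.61% of all genes above the floor. Hamp2, a hepcidin paralogue, read 184 in parietal RNA, against 66.2 in zymogenic RNA and 11.6 in pit RNA, 2.78-fold above the higher of these, and it was called lower on the pit array. Pcbp1, an iron chaperone that loads ferritin, read 94.2 in parietal RNA, against 37.0 in zymogenic RNA and 17.6 in pit RNA, 2.55-fold. Hamp itself was under the floor on every array, with at most 8.20. The Hamp2 probe set is marked for cross-matching, and its further probe set was under the floor. Hephaestin (Heph), ceruloplasmin (Cp), the iron regulatory proteins Aco1 and Ireb2 and the ferrireductases Steap1 to Steap4 were under the floor too, the nearest being Aco1 at 22.2 in parietal RNA. The median log2 ratio to the mean of the other arrays was 0.10 in parietal RNA, -0.081 in zymogenic RNA and -0.062 in pit RNA over the 6 genes, beside 0.057 in parietal RNA, -0.17 in zymogenic RNA and -0.052 in pit RNA over all 4138. After quantile normalization 5 genes of the list were above the floor and their parietal median was -0.016, beside -0.077 over all genes. Neither Hamp2 nor Pcbp1 was then called higher in parietal RNA, nor were they with 1 median over the genes above the floor everywhere, while Hamp2 was called lower on the pit array under both.

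The zinc list, of 23 genes, had 5 above the floor. Slc39a1, an importer of zinc at the cell surface, read 79.1 in pit RNA, against 35.3 in parietal RNA and 8.68 in zymogenic RNA, and was called higher on the pit array at 2.24-fold. Slc39a4, the apical zinc importer whose loss causes acrodermatitis enteropathica in people, was called lower on the zymogenic array, at 9.17, against 55.5 in parietal RNA and 93.3 in pit RNA, at least 2.39-fold. Neither gene has a further probe set. Of all genes above the floor, 5.78% were called higher on the pit array and 11.1% lower on the zymogenic array. Slc39a11 had the same order as both, at 42.7 in pit RNA, 32.7 in parietal RNA and 14.9 in zymogenic RNA, and Slc39a7, a carrier of the endoplasmic reticulum and Golgi, read 32.4 in zymogenic RNA, 22.6 in parietal RNA and 13.0 in pit RNA. Slc30a3 lay at the floor, between 20.4 and 25.5. The median log2 ratio was -0.039 in parietal RNA, -0.68 in zymogenic RNA and 0.63 in pit RNA over these 5 genes, beside the values over all genes given above. After quantile normalization the medians were -0.20 in parietal RNA, -0.44 in zymogenic RNA and 0.64 in pit RNA, again over 5 genes. With arrays scaled to the bacterial BioB and BioC control probe sets, 10 genes of the list were above the floor instead of 5, and the medians over those 10 were 0.83 in parietal RNA and -0.32 in pit RNA, beside 0.73 in parietal RNA and -0.28 in pit RNA over all genes. Slc39a1 was then called lower on the zymogenic array and not higher on the pit array, and with the floor as a pseudocount it was not called. Quantile normalization also moved Slc39a4 from a lower call on the zymogenic array to a higher call on the pit array.

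Genes of haem and iron-sulfur clusters numbered 27, with 24 measured and 9 above the floor, all 9 in parietal RNA, where 2809 of the 4138 genes above the floor on any array were. On that array 2 of them were called higher, beside 7.49% of all genes above the floor. Alad, the second enzyme of haem synthesis, read 113 in parietal RNA, against 46.0 in zymogenic RNA and 30.2 in pit RNA, 2.45-fold above the higher. The name of that probe set ends in _a_at, a mark for several transcripts, and the further Alad probe set was under the floor. Glrx5, a mitochondrial glutaredoxin of cluster assembly, read 48.3 in parietal RNA, against 10.5 in zymogenic RNA and 18.9 in pit RNA, at least 2.08-fold. The remaining 7 were not called, and no gene of the list was called on the zymogenic or the pit array. The median log2 ratio was 0.46 in parietal RNA, -0.21 in zymogenic RNA and -0.22 in pit RNA. After quantile normalization 0 genes of the list were called, and the parietal median was 0.28 over the 7 then above the floor, beside -0.077 over all genes. With 1 median over the genes above the floor everywhere 0 were called as well, and the median was 0.22 over 6 genes, beside -0.12 over all genes. With the floor as a pseudocount 0 were called higher in parietal RNA, and Urod was called lower on the pit array. With the BioB and BioC controls 9 of 14 were called higher in parietal RNA, and with a floor at the receptors' 90th percentile 4 of 18. Of all 18194 genes, 1851 were called higher there under the first and 494 under the second, against 310 on the deposited scale. The list's parietal median with the BioB and BioC controls was 1.37, beside 0.73 over all genes. Hmox1, haem oxygenase, an enzyme that frees iron from haem, was under the floor, at 12.3 in parietal RNA, 9.65 in zymogenic RNA and 17.7 in pit RNA.

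Of 13 copper genes, 5 were above the floor. Sod1, the copper-zinc superoxide dismutase, was called lower on the zymogenic array, at 346, against 1677 in parietal RNA and 1854 in pit RNA, 4.84-fold below the lower of these, and of its 2 further probe sets above the floor 1 was also called. Atox1, a copper chaperone, was called lower on the parietal array, at 59.4, against 128 in zymogenic RNA and 173 in pit RNA, 2.15-fold, and its further probe sets were under the floor. Of all genes above the floor, 11.1% were called lower on the zymogenic array and 0.387% lower on the parietal array. No copper gene was called higher on an array. Cox17, which carries copper to cytochrome oxidase, read 165 in parietal RNA, 55.8 in zymogenic RNA and 100.2 in pit RNA, under 2-fold above the higher. The median log2 ratio was 0.98 in parietal RNA, -0.37 in zymogenic RNA and 0.062 in pit RNA. After quantile normalization the parietal median was 0.35, beside -0.077 over all genes, Sod1 was called higher on the pit array and no longer lower on the zymogenic array, and Atox1 was still called. With the BioB and BioC controls 3 copper genes, Commd1, Cox17 and Cox19, were called higher in parietal RNA and Atox1 was not called. Under that scaling 1851 of all 18194 genes were called higher there. The parietal median was 1.89 over the 7 copper genes then above the floor, beside 0.73 over all genes.

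**Figure D3:**
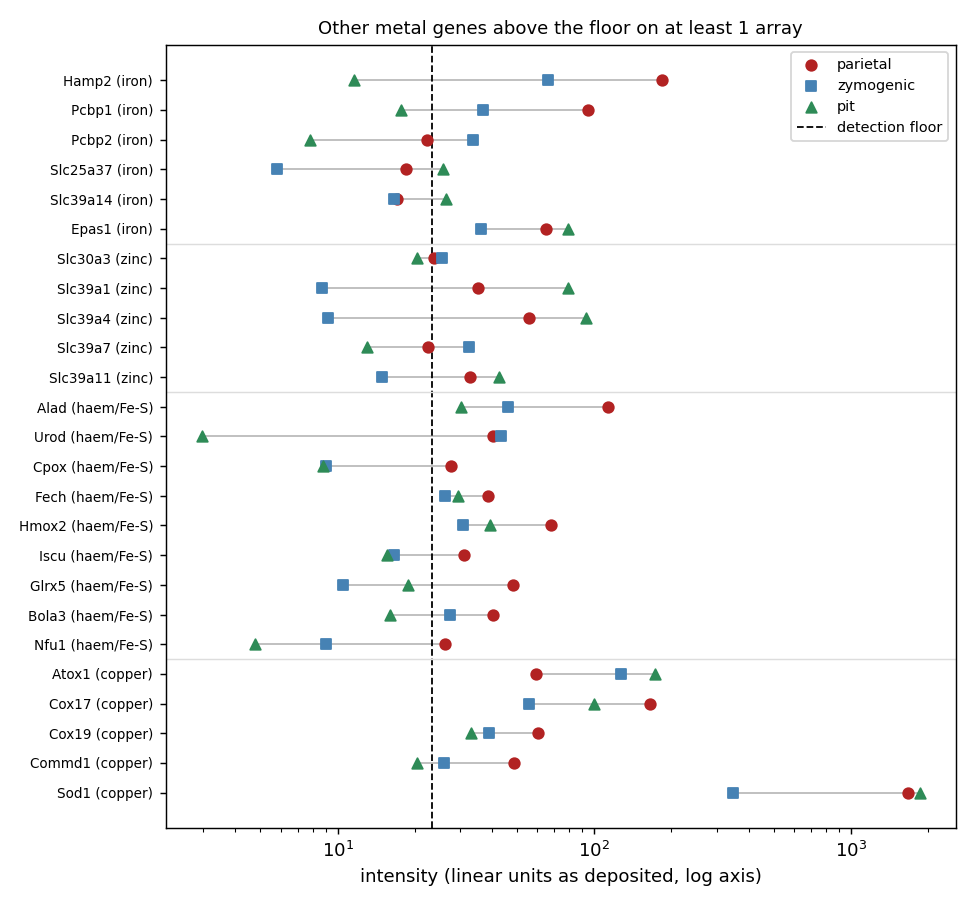
Intensity of the 25 genes of the 4 wider metal lists that were above the floor on at least 1 array, on the parietal (circle), zymogenic (square) and pit (triangle) array, on a log axis with the floor of 23.3 dashed. All 9 haem and iron-sulfur genes lie beyond the floor on the parietal array, as do 2809 of all 4138 genes above it on any array, and Slc39a1 and Slc39a4 lie highest on the pit array and under the floor on the zymogenic array.

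The plot of the alternatives shows how far each member's ratio moves with the processing. Cybrd1 in pit RNA and Mt1 in parietal RNA stay past 2-fold in most of them, and Tfrc falls short of it in 5 of 10 and Fth1 in all but 1 of 9.

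**Figure D4:**
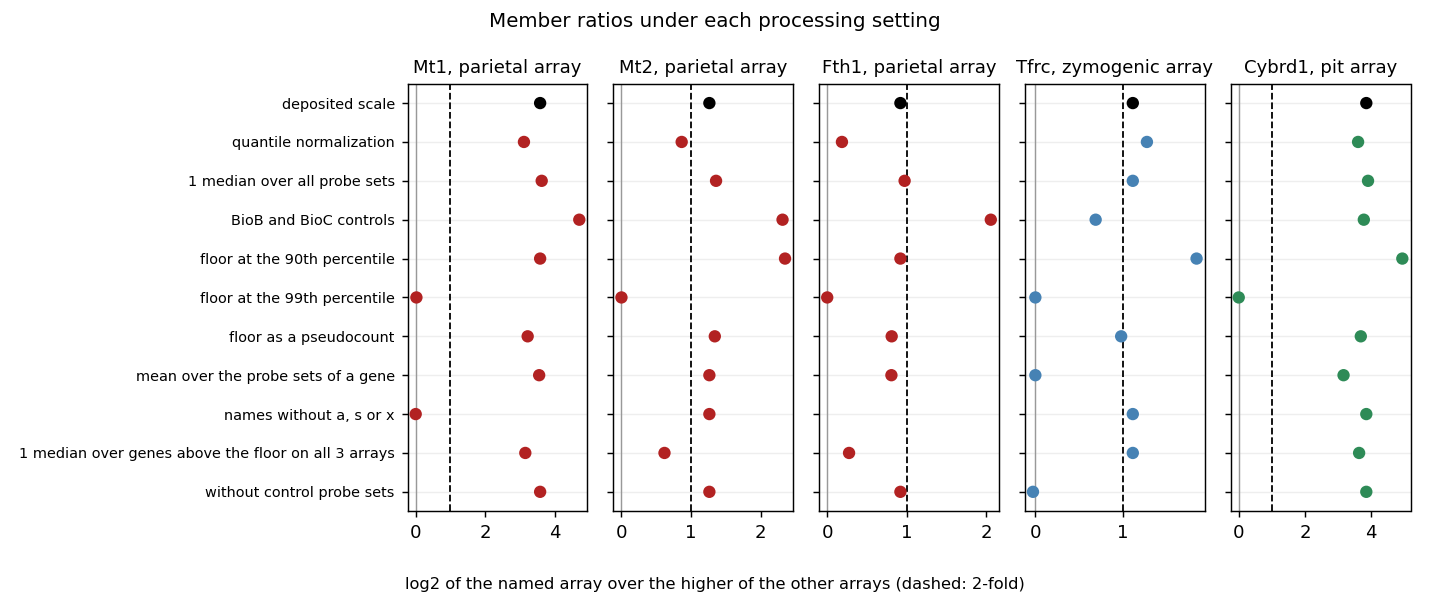
Log2 ratio of the named array over the higher of the other arrays for 5 members under the deposited scale (black) and each processing alternative (coloured), with 2-fold dashed. Cybrd1 is past 2-fold in 9 of 10 alternatives, Mt1 in 8, Mt2 in 7 and Tfrc in 5, and Fth1 in 1 of 9.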

How the data were processed

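The authors deposited 1 intensity per probe set and array on a linear scale. How probes were summarised, background corrected and scaled is stated by no label or header. Of 45101 probe sets, 34958 name 1 gene in the platform's gene table and 932 name several and were left out, while symbols of 34754 were updated through a RefSeq table of GRCm38. A gene was represented by its brightest probe set over the 3 arrays, control probe sets that name a gene included. The floor was the 95th percentile over 80 probe sets for receptors, on the array where it is highest. The call rule, the 2-fold threshold and the median differences follow the report, and no test was possible with 1 array a lineage. Every member was named, and list genes were named if called, with others as background. The members and lists were chosen with earlier results of these data known. Alternatives covered scaling, floor, probe set choice and threshold. Python 3.11.15, numpy 2.4.6, pandas 2.3.3 and matplotlib 3.10.9 were used.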

Additional observations from a re-analysis of the deposited data

Results flagged for a closer look

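The 3 probe sets that list Ftl1, the light ferritin chain, gave signal outside the comparisons, because each also lists the related sequence Ftl1-ps2 and 1 of them lists 3 microRNA genes besides. They read 167.9, 184.3 and 84.2 in pit RNA, against 94.2, 111 and 67.7 in parietal RNA and 25.6, 59.9 and 22.3 in zymogenic RNA, where the last value was under the floor. All 3 had the same order of arrays. Which of the listed sequences gave the signal was not tested, so no value is assigned to Ftl1.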

How the results depend on the processing

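Members called higher on the parietal array numbered 2 on the deposited scale, 1 (Mt1) after quantile normalization, at a 4-fold threshold and with 1 median over genes above the floor on all 3 arrays, 1 (Mt2) with probe sets whose names carry no a, s or x, and 0 with a floor at the receptors' 99th percentile. That floor, 868, left 1 member above it and every count at 0. Higher on the zymogenic array, the count of 1 (Tfrc) became 0 with the BioB and BioC controls, with the floor as a pseudocount, with the mean over probe sets, at 4-fold and without control probe sets, where the Tfrc log2 ratio reversed to -0.027. Lower on the zymogenic array, the count of 1 (Mt1) became 0 after quantile normalization, with the pseudocount, the mean over probe sets, unmarked names, 4-fold and 1 median over genes above the floor on all 3 arrays. Higher on the pit array, the count of 1 (Cybrd1) became 2 without the parietal array. Left-out arrays gave lower counts of 2 on the zymogenic array without the parietal or the pit array, 1 on the parietal array without the zymogenic or the pit array, and 1 and 2 on the pit array without the parietal and the zymogenic array. The causes were not tested beyond what each alternative's construction shows. With the BioB and BioC controls, which averaged 359 in parietal, 798 in zymogenic and 784 in pit RNA, Fth1 passed 2-fold on the parietal array with a log2 ratio of 2.05, and 1851 of all genes were called higher there, against 310 on the deposited scale. The scaling to 1 median over those genes, the omission of controls, the left-out arrays and all alternatives for the wider metal lists were chosen after seeing the data. No paired analysis was possible because each lineage has 1 array. Signal near the floor limits Mtf1, Slc30a1, Slc11a2 and Slc40a1, which were not called at 2-fold in any alternative.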
